A study of Mus musculus with 15 samples.

Results

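The genes described here are 39 mouse genes of the heat shock response, of protein folding in the cytosol, mitochondria and endoplasmic reticulum, and of the unfolded protein response. They were taken by symbol, with no measured value in the rule, from the 30386 genes of a table of read counts from mouse brain. The choice of these genes, and of the marker and pathway lists used below, was made with earlier results of these data known. All 39 were found in it. Of these, 37 had enough reads to be tested, while Hspa1b, an inducible HSP70, and Ern1, which encodes the stress sensor IRE1 alpha, did not. The table holds 15 libraries in 3 groups of 5. Het_B12 are Tbx1+/- mice that received vitamin B12, 20 mg/kg dissolved in PBS, into the peritoneal cavity. Het_PBS are Tbx1+/- mice that received PBS alone, and WT_PBS are wild-type mice that received PBS alone. Injections began at 4 weeks of age and were given 2 times per week for 4 weeks, so every mouse was handled and injected. Vitamin-treated wild types were not analysed here, so a response to the vitamin that needs the mutation cannot be told apart from one that does not. The sources used here do not say which part of Tbx1 is missing from the mutant allele, and Tbx1 itself was not analysed here.

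Chaperones bind proteins that are unfolded or partly folded and let them reach or regain their shape. In the cytosol, heat shock factor 1 switches on HSP70, HSP90 and small heat shock protein genes when unfolded proteins build up. In the endoplasmic reticulum, the sensors IRE1 alpha, PERK and ATF6 read the load of unfolded secretory and membrane proteins and act through XBP1, ATF4 and ATF6 on chaperone genes and on CHOP, a factor linked to cell death. Neurons, which do not divide, and oligodendrocytes, which make large amounts of membrane, rely on both systems.

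The libraries were made with a 3′ method (QuantSeq), in which each transcript is read near its 3′ end, and held 1683258 to 2746122 counts. At that depth, 3 reads in a library correspond to 1.02 to 1.79 CPM (counts scaled to a common library total, with TMM factors throughout), and the 39 genes together held 0.87% to 1.00% of a library's counts. On the first principal component of all tested genes, which carried 18% of the variance, the Het_B12 libraries lay at 19.14 to 32.75. Of the 10 PBS libraries, 9 lay at -22.37 to -10.17, and WT_PBS 3 lay at 17.83, beside the Het_B12 libraries. For members called over WT_PBS, results are therefore also given without WT_PBS 3. That library was singled out after its place on this component, drawn from the same counts, was seen. Leaving out the wild type that lay beside Het_B12 can by itself widen a difference over WT_PBS. Values without WT_PBS 3 are thus a description and no separate support. Results over WT_PBS for genes of the pathway lists are given only with WT_PBS 3. In the labels Het_PBS 5 and Het_B12 1 carry the same animal number, and nowhere is it said that all libraries are from different mice. The p-values therefore speak of the spread among these libraries, which may be partly technical. Marker genes of neurons, oligodendrocytes, astrocytes, microglia and endothelium were all detected, as brain tissue should have them; of the 50, Pecam1 and Tek were at 0 reads in at least 1 Het_PBS library.

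Cell type markers moved with the vitamin. Against Het_PBS, 8 of 10 astrocyte markers and 5 of 10 microglia markers fell in Het_B12, and 6 of 9 tested endothelial markers rose (edgeR, adjusted p under 0.05). Over all genes tested, 3.79% were called lower and 3.47% higher in that comparison. The astrocyte markers summed to 4884 to 5761 CPM in Het_B12, 7426 to 8513 CPM in Het_PBS and 6109 to 8331 CPM in WT_PBS. The microglia markers summed to 378 to 464 CPM in Het_B12, 583 to 803 CPM in Het_PBS and 449.9 to 779 CPM in WT_PBS. The endothelial markers summed to 218 to 331 CPM in Het_B12, 116 to 146 CPM in Het_PBS and 112 to 143 CPM in WT_PBS. WT_PBS 3 had the lowest astrocyte and microglia sums of the PBS libraries, while its endothelial sum of 143 CPM lay among theirs. In bulk tissue, fewer cells of a type and less RNA per cell cannot be told apart, and the part of these markers in the results below was not tested. Of 10 oligodendrocyte markers 2 fell (Mobp and Ermn), and of 10 neuron markers 1 rose (Rbfox3). The oligodendrocyte sum was 4613 to 6467 CPM in Het_B12, 4899.6 to 8465 CPM in Het_PBS and 3920.2 to 8444 CPM in WT_PBS, and the neuron sum was 6781 to 7336 CPM in Het_B12, 6388 to 7399 CPM in Het_PBS and 6635 to 7918 CPM in WT_PBS.

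The share of counts on Gm42418, where ribosomal RNA reads collect, separated all groups, with 3.31% to 6.28% in Het_B12, 6.47% to 10.3% in Het_PBS and 10.6% to 14.9% in WT_PBS. The share of mitochondrially encoded genes overlapped, with 7.56% to 9.44% in Het_B12, 7.82% to 11.4% in Het_PBS and 6.32% to 9.58% in WT_PBS. With both left out of the counts, an alternative chosen after seeing the data, edgeR called the same members in each comparison as with them: 3 in Het_B12 over Het_PBS, 4 in Het_B12 over WT_PBS and 0 in Het_PBS over WT_PBS. Whether a difference between libraries that moves with these shares had a part in the results was not tested.

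Vitamin B12 went with lower transcript levels of 3 abundant chaperones in heterozygotes: Hsp90aa1, the stress-inducible cytosolic HSP90; Hsp90b1, the HSP90 of the endoplasmic reticulum (GRP94); and Canx, calnexin, which holds newly made glycoproteins in the endoplasmic reticulum until they fold. They fell to 0.67, 0.70 and 0.72 times their Het_PBS levels. A gene was called when its p in edgeR's quasi-likelihood test, adjusted over all 11718 genes tested, was under 0.05. The other 34 tested members did not pass, and these include Hspa5, which encodes the main chaperone bound to the sensors of the unfolded protein response, as well as the transcription factors of both stress pathways. The 3 called members are 8.11% of the 37 tested, all lower. Over all 11718 genes tested, 7.26% were called in that comparison, 3.79% lower and 3.47% higher, so the share of members called in either direction is near that of all genes. In a fit of genes with a mean count of at least 50, it was 10.3% of 29 members, all lower, beside 12.7% of all such genes (6.11% lower). The per-library ranges of the 2 groups did not overlap for the same 3 genes, which is 8.11% of members. Among all genes the ranges did not overlap for 7.83%, lower for 4.07% and higher for 3.75%. The median log2 fold change of the members was -0.11, beside 0.012 over all genes, and 22 of 37 (59.5%) were below 0, beside 48.6% of all genes.

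Against WT_PBS, 4 members were called in Het_B12, which is 10.8% of 37, beside 7.33% of all genes (4.11% lower and 3.22% higher). Among genes with a mean count of at least 50, the shares were closer, at 13.8% of 29 members and 13.3% of all such genes (6.84% lower). Canx, Hsp90aa1 and Pdia3 (a disulfide isomerase of the endoplasmic reticulum that works on glycoproteins held by calnexin and calreticulin) were lower. Cryab, alpha B-crystallin, a small heat shock protein of glia and muscle, was higher. This comparison differs in genotype and treatment at once. Without WT_PBS 3 the count was 6 (16.2% of members), with Hsp90b1 and Pdia4 added, both lower, and the share of all genes called was higher as well, at 10.7%. Ranges did not overlap for 3 members, or 8.11%, beside 5.38% of all genes (2.94% lower and 2.44% higher): Canx was lower, and Dnajb11 and Dnajc5, which were not called, were higher. The members' median log2 fold change was -0.021 beside 0.0073 over all genes.

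No member was called between Het_PBS and WT_PBS. The edgeR test called 0 of 37, as it called 0% of all genes, and DESeq2 and limma-voom also called 0 of the members. At an unadjusted p under 0.05 it passed 1 member (Cryab), or 2.7%, beside 7.5% of all genes. No member had ranges that did not overlap, beside 0.836% of all genes (0.444% lower and 0.393% higher). The members' median log2 fold change was 0.10 beside -0.0070 over all genes, with 27 of 37 above 0. Below 0 were 27% of members, beside 51.1% of all genes. The 3 comparisons share libraries, so their values are not independent of each other. A test of any difference among the 3 groups called 5 members (13.5%, beside 7.75% of all genes): Hsp90aa1, Canx, Hsp90b1, Pdia3 and Cryab, with adjusted p of 0.00192, 0.0032, 0.0108, 0.0132 and 0.0191. Leaving out Het_B12 1, Het_B12 3 or WT_PBS 4 each ended that call for Cryab, and leaving out Het_B12 2 ended it for both Cryab and Pdia3, which left 3. Among genes with a mean count of at least 50, the test over the 3 groups called 17.2% of 29 members, beside 14.2% of all such genes.

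**Figure D1:**
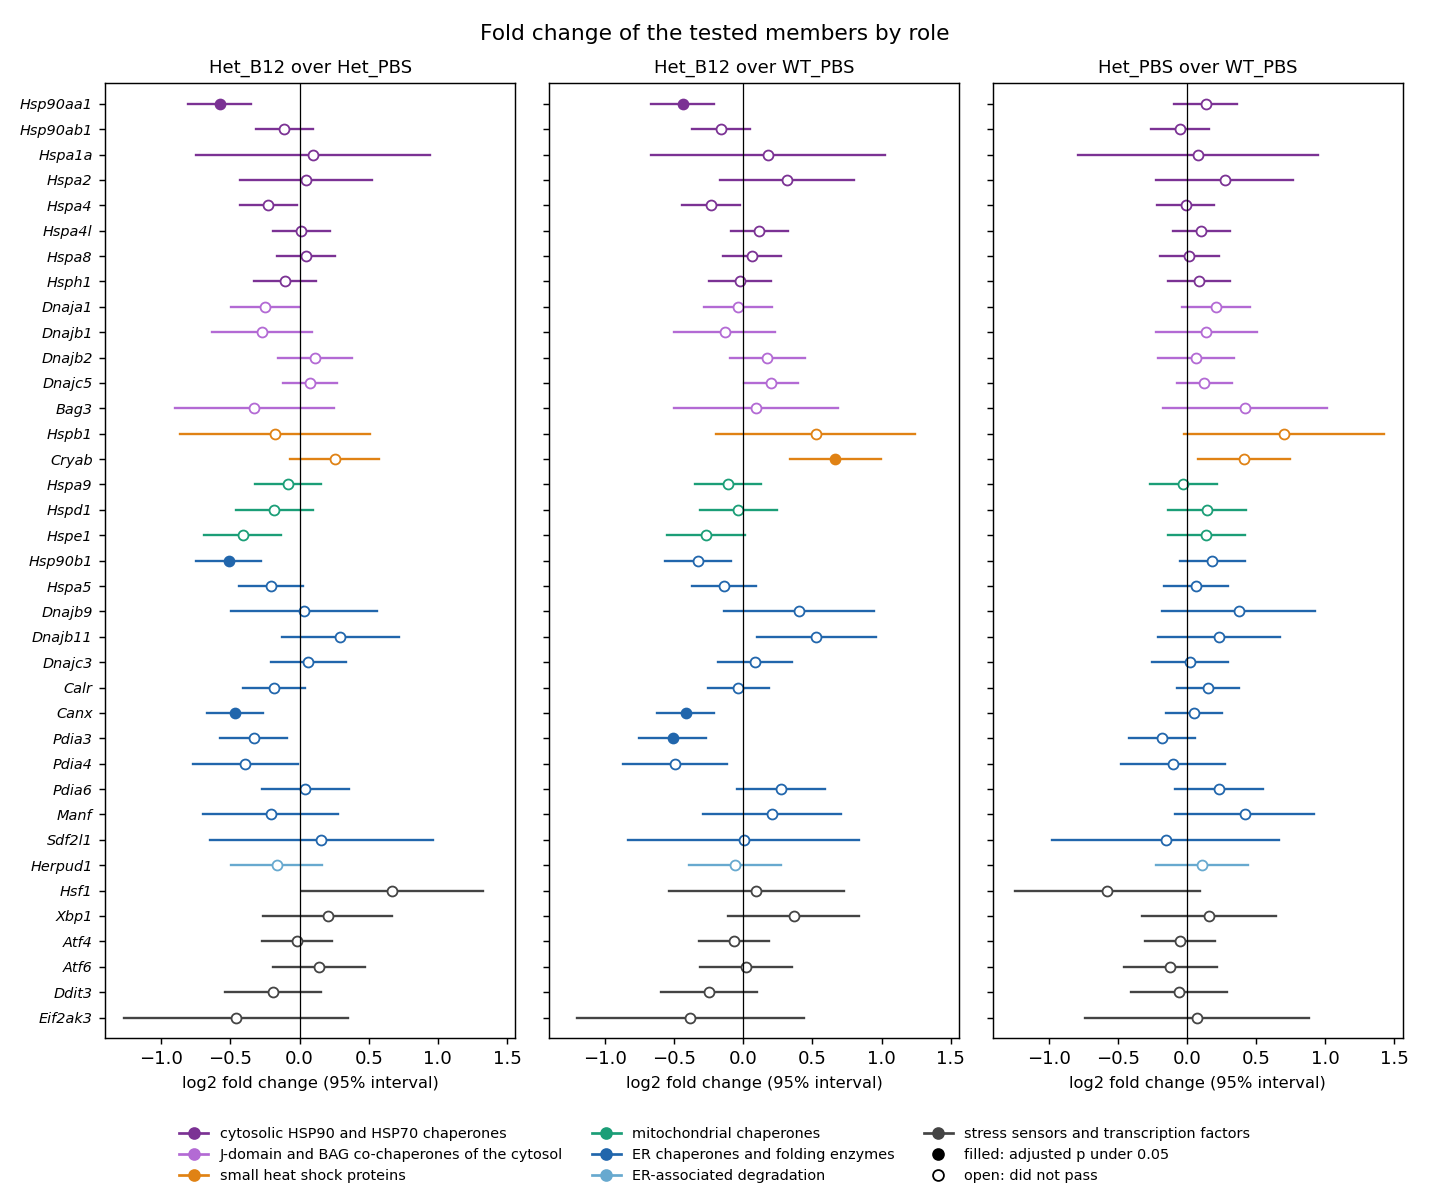
Log2 fold change (x axis) of the 37 tested members (y axis, grouped by role), in Het_B12 over Het_PBS, Het_B12 over WT_PBS and Het_PBS over WT_PBS, with lines for 95% intervals from edgeR. Filled points, those with an adjusted p under 0.05, number 3, 4 and 0 in the panels from left to right, and most intervals of the remaining members cross 0.

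The endoplasmic reticulum members are 12 chaperones and folding enzymes. In Het_B12 against Het_PBS, 2 of the 12 fell (Hsp90b1 and Canx), beside 3.79% of all genes, and 10 did not pass. The median log2 fold change of the 12 was -0.20, beside 0.012 over all genes. Several of these genes carry the endoplasmic reticulum stress element in their promoters, the site through which ATF6 and XBP1 are known to act: CCAAT, then 9 bases of any kind, then CCACG. In RefSeq promoter windows of GRCm38.p6, from 250 bases before to 50 bases after a gene's start, a search on both strands found it in 6 of the 30 members that have a window (20%), and in 39 of all 32851 windows (0.119%). A member was counted if any of its windows held the element, and some members have several. The share of all windows was counted by window, so the shares are not in like units, here and for the elements below. The 6 members are Hsp90b1, Canx, Hspa5, Calr, Dnajc3 and Pdia6. The elements are shown because they are a sequence feature that called and uncalled members have in common, and they are read 5′ to 3′ on the gene's strand with the element in capitals.
Hsp90b1, chr10:86705618-86705676, minus strand: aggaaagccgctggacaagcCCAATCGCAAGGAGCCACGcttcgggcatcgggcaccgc
Hsp90b1, chr10:86705513-86705571, minus strand: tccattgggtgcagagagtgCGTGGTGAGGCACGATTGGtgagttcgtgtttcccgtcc
Canx, chr11:50325780-50325838, minus strand: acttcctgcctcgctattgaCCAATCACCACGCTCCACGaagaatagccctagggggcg
Hspa5, chr2:34772005-34772063, plus strand: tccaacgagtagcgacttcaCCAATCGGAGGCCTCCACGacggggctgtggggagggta
Calr, chr8:84847055-84847113, minus strand: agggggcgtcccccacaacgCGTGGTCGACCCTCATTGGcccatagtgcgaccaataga
Dnajc3, chr14:118937807-118937865, plus strand: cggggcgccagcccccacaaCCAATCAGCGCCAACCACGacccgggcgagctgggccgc
Pdia6, chr12:17266471-17266529, plus strand: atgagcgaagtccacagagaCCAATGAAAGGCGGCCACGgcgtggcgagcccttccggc
Hsp90b1 has a copy in each orientation, and the element of Calr, like the second of Hsp90b1, reads in reverse. Counted from the RefSeq start of the gene, the first base of the element lies between -212, in the far copy of Hsp90b1, and -65, in Hspa5. In the GENCODE annotation Hspa5 begins at base 34771970, so by that annotation its printed stretch lies inside the gene. A match to these letters is a description of the sequence and does not show that a factor bound it in these brains.

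Hsp90b1 (chr10:86690209-86705509 in GRCm38, minus strand) had 285, 257, 272, 229 and 242 CPM in the Het_B12 libraries, 415, 369, 297, 343 and 410.2 CPM in the Het_PBS libraries, and 357, 382, 237, 326 and 309 CPM in the WT_PBS libraries. Every Het_B12 library was below every Het_PBS library, and WT_PBS 3, at 237 CPM, was the only WT_PBS library inside the Het_B12 range. The fold in Het_B12 over Het_PBS was 0.70 (95% interval 0.595 to 0.826; log2 -0.51 ± 0.12 SE, edgeR adjusted p = 0.00429). Over WT_PBS the log2 fold change of -0.33 ± 0.12 did not pass (adjusted p = 0.0815), whereas without WT_PBS 3 it was -0.42 and passed (adjusted p = 0.0108).

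Canx (chr11:50293961-50325673, minus strand) had 265, 282, 327, 339.65 and 314 CPM in Het_B12, 478, 389, 412, 413 and 418 CPM in Het_PBS, and 407, 423, 369, 432 and 407 CPM in WT_PBS. It is the member whose Het_B12 libraries lay below all 10 PBS libraries, WT_PBS 3 included. The mean ± SD over 5 libraries was 305 ± 31.3 CPM in Het_B12, 422 ± 33.1 CPM in Het_PBS and 408 ± 24.1 CPM in WT_PBS, and means below are given in the same way. Canx fell to 0.724 times the Het_PBS level (95% interval 0.629 to 0.834; log2 -0.47 ± 0.10, adjusted p = 0.00257) and to 0.749 times the WT_PBS level (0.650 to 0.863; log2 -0.42 ± 0.10, adjusted p = 0.00786). Without WT_PBS 3 the log2 fold change over WT_PBS was -0.45 (edgeR adjusted p = 0.00294).

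Pdia3 (chr2:121413775-121438687, plus strand) had 120.5, 106, 137, 116 and 125 CPM in Het_B12, 133, 174, 141, 143 and 171 CPM in Het_PBS, and 166, 179, 133, 196 and 188 CPM in WT_PBS. Het_B12 3, at 137 CPM, lay above the lowest library of each PBS group, and WT_PBS 3 was that lowest library among the wild types. In Het_B12 Pdia3 fell to 0.702 times the WT_PBS level (95% interval 0.594 to 0.8295; log2 -0.51 ± 0.12, adjusted p = 0.00592), and without WT_PBS 3 the log2 fold change was -0.59. Over Het_PBS the log2 fold change of -0.33 ± 0.12 did not pass (adjusted p = 0.084), though it did in a fit without WT_PBS 3 (adjusted p = 0.0475).

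Hspa5 encodes BiP, the HSP70 of the endoplasmic reticulum, whose release from the sensors is part of the start of the unfolded protein response. It had 618, 507, 523, 424 and 345 CPM in Het_B12, 528, 563, 526, 549 and 621 CPM in Het_PBS, and 526, 548, 533, 487 and 567 CPM in WT_PBS. The Het_B12 libraries spread widely, with both the lowest value of all 15 and a value close to the highest, and the groups overlapped. Its log2 fold change was -0.21 ± 0.11 over Het_PBS (adjusted p = 0.296) and -0.14 ± 0.11 over WT_PBS (adjusted p = 0.513). The interval for Het_B12 over Het_PBS, 0.739 to 1.02 in fold, reaches folds close to those of Hsp90b1 and Canx.

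The other members with the stress element did not pass either. Calr, calreticulin, the soluble partner of calnexin, averaged 307 ± 21.4 CPM in Het_B12, 348 ± 48.9 CPM in Het_PBS and 314 ± 40.9 CPM in WT_PBS. Its log2 fold change over Het_PBS was -0.18 ± 0.11 (adjusted p = 0.344). Dnajc3 (p58IPK), a J-domain partner of BiP, averaged 69.5 ± 10.1 CPM in Het_B12, 66.5 ± 5.19 CPM in Het_PBS and 65.5 ± 7.47 CPM in WT_PBS, with a fold over Het_PBS of 1.05 (0.867 to 1.26). Pdia6, another disulfide isomerase, averaged 68.1 ± 12.5 CPM in Het_B12, 66.2 ± 15.04 CPM in Het_PBS and 56.3 ± 6.68 CPM in WT_PBS, with a fold over Het_PBS of 1.03 (0.828 to 1.28). Of the 6 genes with the element, then, 2 passed the test in Het_B12 over Het_PBS and 4 did not; differences between the genes were not tested.

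**Figure D2:**
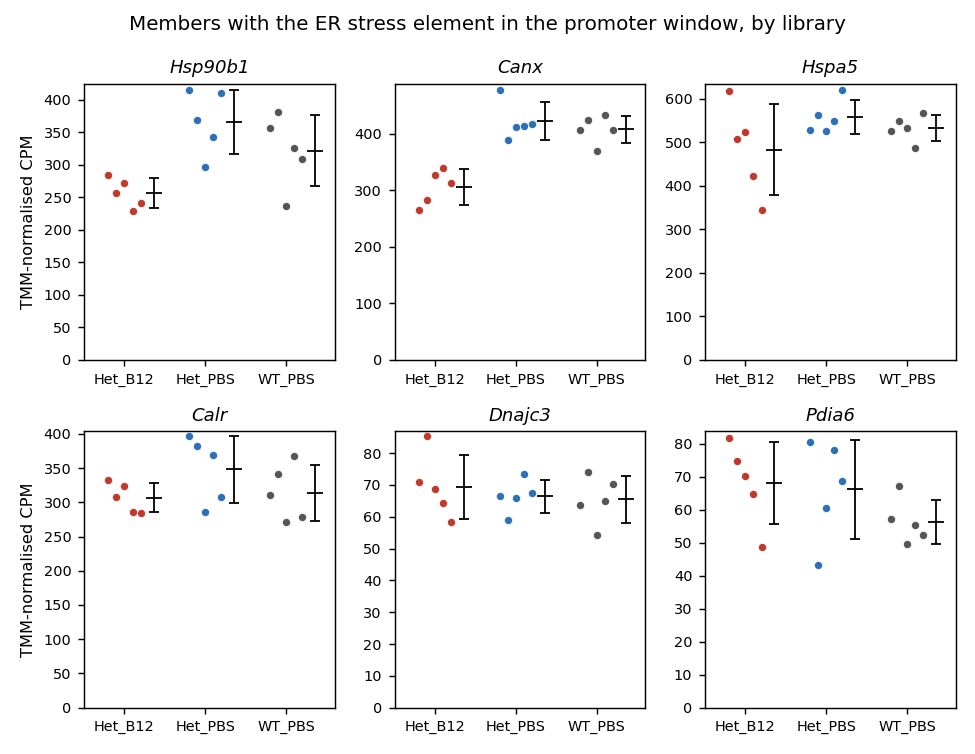
Level of the 6 members with the endoplasmic reticulum stress element, in TMM-normalised CPM (y axis, from 0) for each library of Het_B12, Het_PBS and WT_PBS (x axis), with the mean and SD of 5 libraries at the right of each group. The Het_B12 points of Hsp90b1 and Canx lie below all Het_PBS points, while those of Hspa5, Calr, Dnajc3 and Pdia6 overlap them.

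The remaining endoplasmic reticulum members held fewer reads. Pdia4, a disulfide isomerase (ERp72), averaged 32.9 ± 6.62 CPM in Het_B12, 42.8 ± 8.56 CPM in Het_PBS and 45.8 ± 13.8 CPM in WT_PBS. It did not pass in Het_B12 over Het_PBS (log2 -0.39 ± 0.19, adjusted p = 0.212) or over WT_PBS (log2 -0.49 ± 0.19, adjusted p = 0.104), though it was called over WT_PBS when WT_PBS 3 was left out. Dnajb11 (ERdj3), a J-domain partner of BiP, had 23.7 to 34.8 CPM in Het_B12, 15.5 to 30.4 CPM in Het_PBS and 15.2 to 23.1 CPM in WT_PBS. All Het_B12 libraries exceeded all WT_PBS libraries, but the log2 fold change of 0.53 ± 0.21 did not pass (adjusted p = 0.131). Dnajb9 (ERdj4), Manf, a secreted neurotrophic factor, and Sdf2l1, a component of the BiP chaperone complex, spread too widely to be placed: their 95% intervals in Het_B12 over Het_PBS were 0.708 to 1.47, 0.617 to 1.21 and 0.638 to 1.95 in fold. Manf overlaps Rbm15b on the same strand and Dcaf1 on the other, which had 88.5% and 75.5% as many reads, so its counts are uncertain. Herpud1, which helps to draw misfolded proteins out for degradation and is a target of the unfolded protein response, averaged 37.0 ± 5.36 CPM in Het_B12, 41.5 ± 5.19 CPM in Het_PBS and 38.5 ± 6.94 CPM in WT_PBS, and did not pass (adjusted p = 0.607 over Het_PBS).

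The cytosolic HSP90 and HSP70 members are 9 genes, of which 8 were tested. In Het_B12 against Het_PBS 1 fell (Hsp90aa1) and 7 did not pass, with a median log2 fold change of -0.047, beside 3.79% lower and a median of 0.012 over all genes. Hsp90aa1 (chr12:110690605-110702728, minus strand) had 1088, 1156, 1212, 1127 and 1182 CPM in Het_B12, 1665, 1624, 1574, 1814 and 1919 CPM in Het_PBS, and 1733, 1833, 1033, 1483 and 1733 CPM in WT_PBS. The Het_B12 libraries were tightly grouped below all Het_PBS libraries. WT_PBS 3, at 1033 CPM, was lower than any Het_B12 library, while the other 4 wild types were all higher. Hsp90aa1 fell to 0.671 times the Het_PBS level (95% interval 0.573 to 0.786; log2 -0.58 ± 0.11, adjusted p = 0.001005). Over WT_PBS it fell to 0.738 times (0.630 to 0.864; log2 -0.44 ± 0.11, adjusted p = 0.0125), and without WT_PBS 3 the log2 fold change was -0.56 (adjusted p = 9.05e-05).

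Hsp90ab1, the constitutive cytosolic HSP90, had 2678 to 3188 CPM in Het_B12, 2673 to 3991 CPM in Het_PBS and 3023 to 3805 CPM in WT_PBS. Its groups overlapped, and its fold in Het_B12 over Het_PBS was 0.927 (0.802 to 1.07, adjusted p = 0.59). Within a library, the ratio of Hsp90aa1 to Hsp90ab1 was 0.382 ± 0.0329 in Het_B12, 0.539 ± 0.113 in Het_PBS and 0.468 ± 0.122 in WT_PBS. WT_PBS 3 had the lowest ratio of all, 0.307, and the ranges of 0.341 to 0.432 in Het_B12 and 0.407 to 0.718 in Het_PBS overlapped. Of the 50-base pieces in the last 300 bases of Hsp90aa1 transcripts, 37.6% also occur in transcripts of other annotated genes, against 0% for Hsp90ab1, so Hsp90aa1 reads from these bases may not be assigned to 1 gene. The genes that share the pieces, here and for the members below, were not analysed here, and how many reads this touches was not tested.

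The HSP70 members gave no call. Hspa8, the constitutive HSC70, had 456, 468, 555, 403 and 518 CPM in Het_B12, 428, 528, 481, 474 and 412 CPM in Het_PBS, and 420.5, 507, 441, 454 and 474 CPM in WT_PBS. Its groups overlapped almost fully, with a fold of 1.03 (0.893 to 1.19) in Het_B12 over Het_PBS. Of its 3′ pieces 73.7% occur in other genes as well, so its count is uncertain. Hspa1a, the classic heat-inducible HSP70, had 17, 8, 24, 16 and 11 reads in Het_B12, 9, 16, 12, 10 and 12 reads in Het_PBS, and 18, 4, 5, 10 and 19 reads in WT_PBS. In CPM these are 2.87 to 8.15 in Het_B12, 4.13 to 7.17 in Het_PBS and 2.31 to 7.94 in WT_PBS, which overlap. A fold of 1.07 in Het_B12 over Het_PBS had an interval of 0.597 to 1.92, so a change of the size seen for Hsp90aa1 was not detectable at this depth. Hspa1b, its neighbour on chromosome 17, had 4 to 7 reads in Het_B12, 2 to 10 reads in Het_PBS and 0 to 5 reads in WT_PBS.

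Further members of the group are partners or relatives of HSP70. Hspa4 and Hspa4l, of the HSP110 family that exchanges nucleotide on HSP70, gave folds of 0.856 (0.740 to 0.989, adjusted p = 0.191) and 1.01 (0.874 to 1.16) in Het_B12 over Het_PBS. Hsph1 (HSP105), of the same family, gave 0.929 (0.795 to 1.09). Hspa2, an HSP70 best known from the testis, had 12.2 to 27.3 CPM in Het_B12, 13.2 to 26.9 CPM in Het_PBS and 12.3 to 18.5 CPM in WT_PBS. The levels of these 4 genes overlapped between all groups, and none passed in any comparison.

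**Figure D3:**
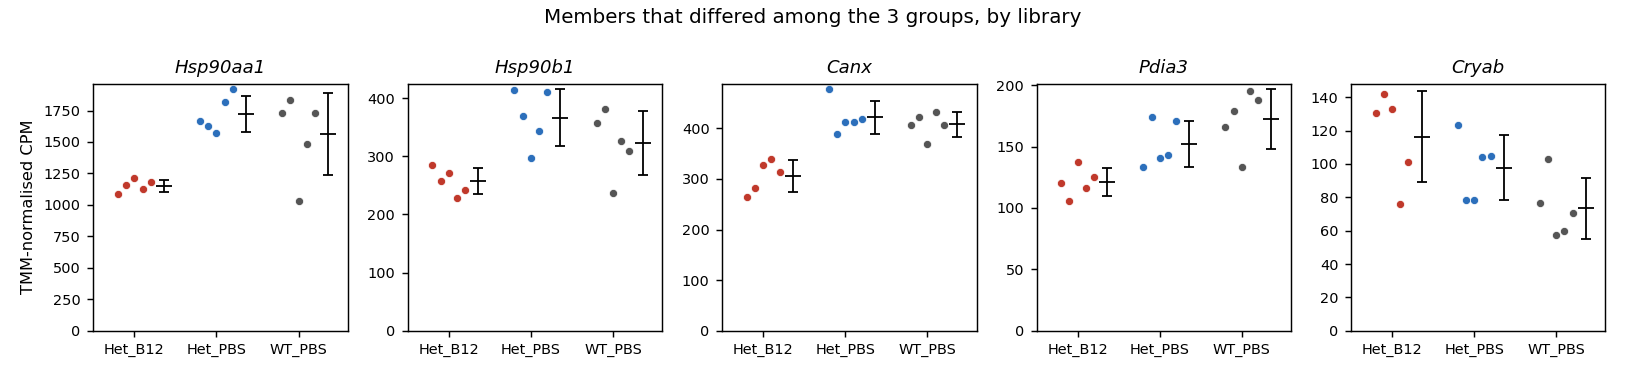
Level of the 5 members that differed among the 3 groups, in TMM-normalised CPM (y axis, from 0) for each library of Het_B12, Het_PBS and WT_PBS (x axis), with the mean and SD of 5 libraries at the right of each group. Het_B12 is low for the first 4 genes and high for Cryab, and the low WT_PBS point of Hsp90aa1 (1033 CPM) and Hsp90b1 (237 CPM) is WT_PBS 3.

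The co-chaperones of the cytosol, 5 genes, gave no call in edgeR in any comparison. At an unadjusted p under 0.05 there was 1 in Het_B12 over Het_PBS (Dnaja1) and 1 in Het_B12 over WT_PBS (Dnajc5). Over all genes, 21.7% and 21.6% reached that level in these comparisons. Dnaja1 (HDJ2) delivers clients to HSP70 and had 170.4 ± 24.9 CPM in Het_B12, 202 ± 18.0 CPM in Het_PBS and 175 ± 27.5 CPM in WT_PBS. Its fold of 0.842 over Het_PBS (adjusted p = 0.218) rests on counts that are uncertain, since 52.3% of its 3′ pieces occur elsewhere. Dnajc5 encodes cysteine string protein, which guards synaptic vesicle proteins in neurons. It had 389.6 to 437 CPM in Het_B12, 376 to 409 CPM in Het_PBS and 299.6 to 379 CPM in WT_PBS, and its within-group SD of 0.0911 on the log2 scale was the smallest of all members. All Het_B12 libraries lay above all WT_PBS libraries, but the log2 fold change of 0.20 ± 0.10 did not pass (adjusted p = 0.213). Dnajb1 (HSP40), which is strongly induced by heat, had 42.3 ± 10.9 CPM in Het_B12, 51.4 ± 15.4 CPM in Het_PBS and 46.2 ± 5.91 CPM in WT_PBS. Bag3, which steers HSP70 clients to autophagy, and Dnajb2, a neuronal J-domain protein, gave folds of 0.798 (0.535 to 1.19) and 1.08 (0.896 to 1.299) over Het_PBS.

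The 2 small heat shock proteins, which hold unfolded proteins without using ATP, had positive log2 fold changes in both Tbx1+/- groups over WT_PBS. Cryab (chr9:50751325-50756636, plus strand) had 130.5, 142, 133, 75.9 and 101 CPM in Het_B12, 124, 78.4, 78.5, 104 and 105 CPM in Het_PBS, and 76.8, 103, 57.3, 60.0 and 70.6 CPM in WT_PBS. Het_B12 was high in libraries 1, 2 and 3, while Het_B12 4 and Het_B12 5 lay inside the WT_PBS range, Het_B12 5 near its top. The groups overlapped. In Het_B12 Cryab rose to 1.59 times the WT_PBS level (95% interval 1.27 to 1.99; log2 0.67 ± 0.16, adjusted p = 0.00816), and without WT_PBS 3, its lowest library, the log2 fold change was 0.59 (adjusted p = 0.015). Over WT_PBS, Het_PBS gave a log2 fold change of 0.41 ± 0.16 that did not pass (edgeR adjusted p = 0.578), and over Het_PBS, Het_B12 gave 0.25 ± 0.16 (adjusted p = 0.368). In brain Cryab is known from oligodendrocytes and astrocytes; the summed astrocyte markers were lower in every Het_B12 library (at most 5761 CPM) than in every WT_PBS library (at least 6109 CPM), and their part in this result was not tested.

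Hspb1 (HSP27), known from glia and vessels, had 11.4, 12.2, 8.49, 9.93 and 6.98 CPM in Het_B12, 7.02, 13.1, 14.2, 6.19 and 14.9 CPM in Het_PBS, and 5.34, 1.74, 9.35, 6.25 and 10.9 CPM in WT_PBS. WT_PBS 2 was the lowest library, and the groups overlapped. The log2 fold change was -0.18 ± 0.34 in Het_B12 over Het_PBS and 0.52 ± 0.36 in Het_B12 over WT_PBS. In Het_PBS over WT_PBS it was 0.70 ± 0.36, and none of these passed (adjusted p = 0.82, 0.414 and 0.666 in edgeR).

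The 3 mitochondrial chaperones gave no call in edgeR in any comparison. In Het_B12 over Het_PBS, 1 of them had an unadjusted p under 0.05, beside 21.7% of all genes. That member, Hspe1 (HSP10), is the lid of the folding chamber formed by Hspd1 (HSP60). It had 71.4, 87.1, 72.3, 62.4 and 74.3 CPM in Het_B12, 106, 76.0, 84.1, 111 and 114 CPM in Het_PBS, and 82.1, 117, 84.7, 77.6 and 83.1 CPM in WT_PBS. Het_B12 was mostly low, with Het_B12 2 inside the range of both PBS groups. The fold over Het_PBS was 0.752 (0.620 to 0.914; log2 -0.41 ± 0.14, adjusted p = 0.0621). It passed with DESeq2 and in edgeR fits without WT_PBS 3, without WT_PBS 2, without Het_PBS 2, without Het_B12 2, or on Het_B12 and Het_PBS alone. Hspd1 had 84.8 ± 8.18 CPM in Het_B12, 96.5 ± 15.1 CPM in Het_PBS and 87.3 ± 18.0 CPM in WT_PBS, with a fold over Het_PBS of 0.882 (0.727 to 1.07), and Hspa9 (mortalin) gave 0.943 (0.798 to 1.11).

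Hspd1 and Hspe1 lie head to head on chromosome 1 and share a promoter, so the same bases are printed for both, read on each gene's strand, with the heat shock elements in capitals. The element searched for is 3 units of GAA and TTC in turn, starting with either, with 2 bases between units. The capitals span 4 units, in which 2 matches to the element overlap.
Hspd1, chr1:55088039-55088096, minus strand: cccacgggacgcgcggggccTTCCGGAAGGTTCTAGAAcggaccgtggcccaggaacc
Hspe1, chr1:55088039-55088096, plus strand: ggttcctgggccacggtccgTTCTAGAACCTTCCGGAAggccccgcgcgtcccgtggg
The stretch in capitals begins at base -144 from the RefSeq start of Hspd1 whose window holds it (Hspd1 has 2 windows) and at base -89 from that of Hspe1. The 3-unit element was found in 3 of 30 members (10%; the third is Hsph1, after its start), beside 0.603% of all windows. Its 2-unit form, which every 3-unit match also holds, was found in 9 of 30 (30%), beside 15.1% of all windows. TGACGT, the core of the cyclic AMP response element, whose matches overlapped none of these elements, was found in 4 of 30 (13.3%), beside 7.51% of all windows. Hsp90aa1, the called cytosolic member, is among the 9 members without a window. Of the 3′ pieces of Hspd1 and Hspe1, 39.2% and 43.8% occur in other genes, so their counts are uncertain. In GENCODE, where Hspd1 begins at base 55088243 and Hspe1 at base 55088132, the genes also overlap each other on opposite strands. By that annotation the stretch in capitals lies inside Hspd1. The overlap is at the starts of the genes, away from the 3′ ends that the libraries favour.

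The stress sensors and transcription factors, 7 genes of which 6 were tested, gave no call in edgeR in any comparison. At an unadjusted p under 0.05 there was 1 in Het_B12 over Het_PBS (Hsf1) and 0 in Het_B12 over WT_PBS and Het_PBS over WT_PBS. Over all genes, 21.7%, 21.6% and 7.5% reached that level in these comparisons, in the same order. Hsf1, the heat shock transcription factor, had 9.55, 14.7, 10.2, 11.9 and 6.63 CPM in Het_B12, 5.62, 5.97, 6.47, 9.498 and 5.38 CPM in Het_PBS, and 9.85, 10.99, 15.8, 7.09 and 6.69 CPM in WT_PBS. The Het_PBS libraries were the lowest apart from Het_PBS 4, and all groups overlapped. Its log2 fold change was 0.67 ± 0.32 in Het_B12 over Het_PBS (adjusted p = 0.216), 0.094 ± 0.31 in Het_B12 over WT_PBS and -0.58 ± 0.33 in Het_PBS over WT_PBS (adjusted p = 0.714). Its 318 reads over all libraries limit the precision.

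Ddit3 encodes CHOP, and had 53.2, 45.9, 53.0, 67.1 and 42.9 CPM in Het_B12, 39.8, 80.4, 57.0, 68.6 and 52.0 CPM in Het_PBS, and 73.9, 39.3, 62.5, 73.4 and 60.2 CPM in WT_PBS. The groups overlapped, and the fold in Het_B12 over Het_PBS was 0.874 (0.687 to 1.11, adjusted p = 0.561). Ddit3 overlaps Mars on the opposite strand, which had 58.6% as many reads, and no source used here names the strand setting of the counting. Atf4, the factor through which PERK acts, gave a fold of 0.987 (0.828 to 1.18), and Atf6 gave 1.10 (0.874 to 1.39). Xbp1 averaged 27.8 ± 8.69 CPM in Het_B12, 24.4 ± 7.41 CPM in Het_PBS and 21.7 ± 6.95 CPM in WT_PBS. Counts per gene do not tell the spliced form of Xbp1, or cleavage of ATF6, so they do not read the activity of these factors. Eif2ak3, which encodes PERK, had 249 reads in all and an interval of 0.415 to 1.28 in fold, and Ern1 had 70 reads in all.

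**Figure D4:**
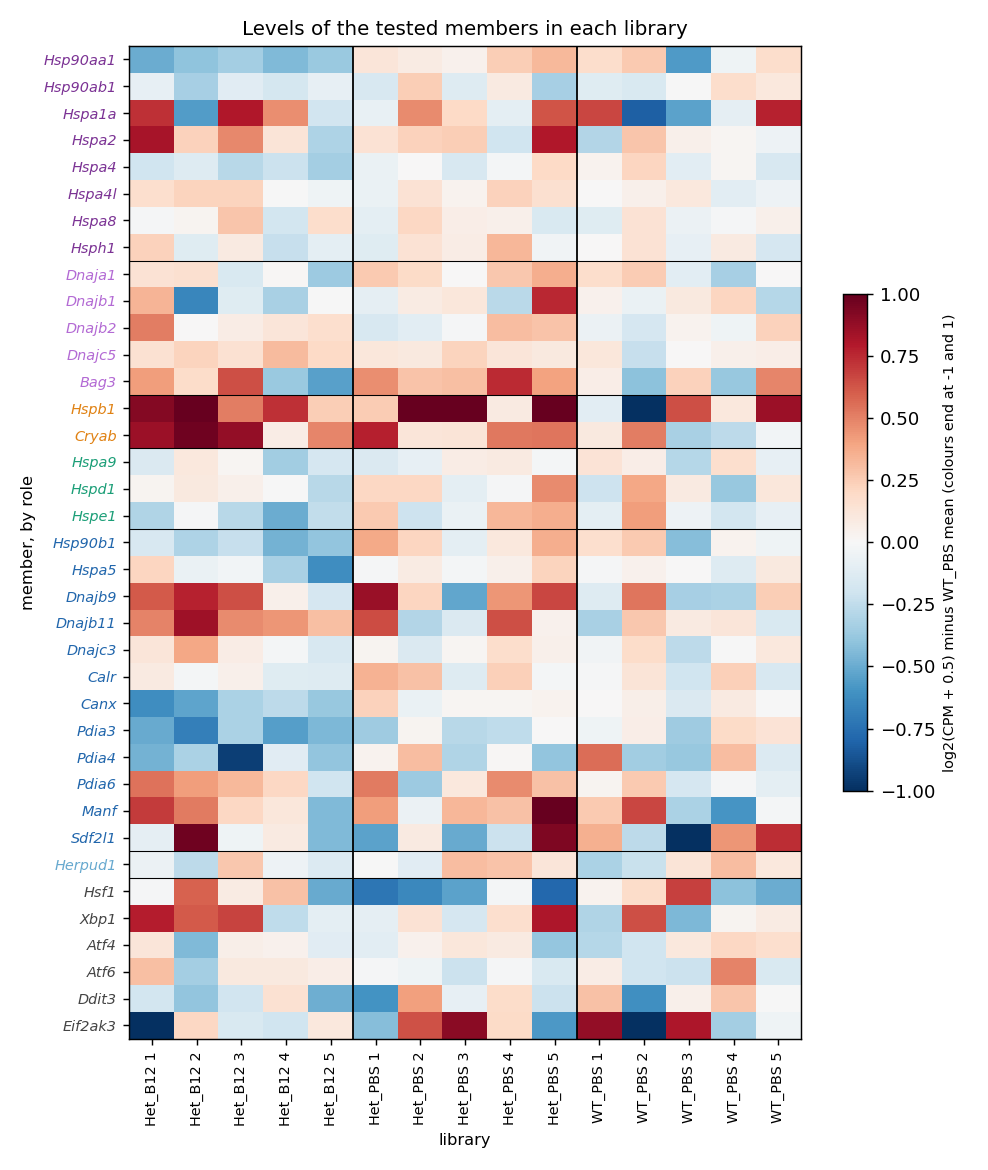
Level of the 37 tested members (y axis, by role) in each library (x axis), as log2(CPM + 0.5) minus the WT_PBS mean of the gene, from blue (lower) to red (higher), with colours ending at -1 and 1. Hsp90aa1, Hsp90b1, Canx and Pdia3 are blue across Het_B12, and they are also blue in WT_PBS 3, Canx least. Pdia3 is blue in Het_PBS 1, 3 and 4 as well, and low-count genes such as Hspa1a and Eif2ak3 vary within every group.

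Other genes of the same pathways were counted from lists of textbook members. Of 25 tested further chaperones and co-chaperones of the cytosol, 3 fell in Het_B12 against Het_PBS and none rose, beside 3.79% lower and 3.47% higher over all genes. Ptges3 (p23), which closes the HSP90 cycle on its clients, had 98.1 ± 6.51 CPM in Het_B12, 131 ± 10.8 CPM in Het_PBS and 132 ± 24.8 CPM in WT_PBS, with a log2 fold change over Het_PBS of -0.42 ± 0.12 (adjusted p = 0.0329) and over WT_PBS of -0.43 ± 0.12 (adjusted p = 0.0292). St13 (HIP), which stabilises HSP70 on its clients, had 151 ± 18.6 CPM in Het_B12, 195 ± 24.1 CPM in Het_PBS and 189.9 ± 20.4 CPM in WT_PBS, and fell by 0.37 on the log2 scale over Het_PBS (adjusted p = 0.043). Hspb8, a small heat shock protein that works with BAG3, had 29.2 ± 5.66 CPM in Het_B12, 44.5 ± 6.65 CPM in Het_PBS and 33.3 ± 11.4 CPM in WT_PBS, and fell by 0.61 over Het_PBS (adjusted p = 0.0401). The 22 others, among them Stip1 and Cdc37, which bring clients to HSP90, did not pass.

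Among 12 tested subunits of the chaperonin CCT and of prefoldin, which fold actin and tubulin, 1 fell in Het_B12 against Het_PBS, beside 3.79% of all genes, and the median log2 fold change was -0.22 beside 0.012 over all genes. That subunit, Pfdn4, had 22.3 ± 5.67 CPM in Het_B12, 39.4 ± 6.89 CPM in Het_PBS and 41.9 ± 8.27 CPM in WT_PBS, with a log2 fold change of -0.82 ± 0.19 over Het_PBS (adjusted p = 0.00436) and -0.92 ± 0.19 over WT_PBS (adjusted p = 0.00162). Over WT_PBS 3 of the 12 were lower, beside 4.11% of all genes: Pfdn4, Pfdn5 and Pfdn1, the third with an adjusted p of 0.0499.

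Of 28 tested further genes of folding and degradation in the endoplasmic reticulum, 1 fell in Het_B12 against Het_PBS and none rose, beside the same 3.79% and 3.47%. Selenos, a selenoprotein that anchors the degradation machinery in the membrane, had 121 ± 11.4 CPM in Het_B12, 167 ± 23.9 CPM in Het_PBS and 162 ± 34.0 CPM in WT_PBS, with log2 fold changes of -0.45 ± 0.13 over Het_PBS (adjusted p = 0.0256) and -0.42 ± 0.13 over WT_PBS (adjusted p = 0.0437). Sel1l, the scaffold of the HRD1 ubiquitin ligase, had 214 ± 30.3 CPM in Het_B12, 174 ± 26.9 CPM in Het_PBS and 156 ± 10.7 CPM in WT_PBS. It rose over WT_PBS (log2 0.46 ± 0.12, adjusted p = 0.0125) and did not pass over Het_PBS (0.30 ± 0.12, adjusted p = 0.119). These 2 genes of the same degradation pathway thus went opposite ways over WT_PBS.

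Targets of ATF4 and CHOP and kinases of the integrated stress response numbered 18 tested genes, and edgeR called 0 of them in Het_B12 against Het_PBS. There 2 had an unadjusted p under 0.05, beside 21.7% of all genes. Over WT_PBS 1 was called, beside 7.33% of all genes: Nupr1, a small stress-induced factor, with 8.99 ± 2.92 CPM in Het_B12, 12.5 ± 6.08 CPM in Het_PBS and 17.1 ± 1.25 CPM in WT_PBS (log2 -0.93 ± 0.30, adjusted p = 0.0482). Of 8 further mitochondrial protein quality genes edgeR called 0 in each comparison. At an unadjusted p under 0.05 there were 1, 1 and 0 in Het_B12 over Het_PBS, Het_B12 over WT_PBS and Het_PBS over WT_PBS. Over all genes these shares were 21.7%, 21.6% and 7.5%. In Het_PBS against WT_PBS, edgeR called 0 genes of these 5 lists. At an unadjusted p under 0.05 there were 2, 1, 0, 2 and 0 in the order given here, beside 7.5% of all genes. Other tools were not run on these lists.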

How the data were processed

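RNA from mouse brain was measured in 15 libraries, 5 per group, grouped and numbered by their titles. The tissue appears in the labels as whole brain and as brain hemisphere, and more than 1 method of RNA isolation is named, with no statement of which library had which. The authors deposited raw read counts per gene. STAR, HTSeq, edgeR and the build mm10 are named in the submitters' processing notes, and no source used here gives their versions, the annotation or the strand setting. Reads that match several near-identical genes may be dropped or divided among them.

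Counts were analysed in R 4.3.3 with edgeR 4.0.16. Of 30386 genes, 11718 passed filterByExpr. TMM factors scaled the libraries, and the quasi-likelihood fit covered all 15 libraries, with a mean for each group, no covariate and 12 residual degrees of freedom. Contrasts were tested with glmQLFTest, any difference among the 3 groups with its F test, both adjusted by the Benjamini-Hochberg method over all genes tested, with a threshold of 0.05. Scripts were tested on simulated data. Within groups, the most similar libraries had a chi-square over degrees of freedom of 3.14, and those with the same animal number had 11.33, so none was treated as a duplicate.

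The 39 genes and all lists were chosen with earlier results of these data known. Values per library are given for members called in any test, for the 3 smallest p where none was called, and for Hspa5, Hspa8, Hsp90aa1, Hspa1a, Hsf1 and Ddit3. From the other lists at most 4 called genes with the smallest p are named per comparison. Coordinates and transcripts came from GENCODE M21 (GRCm38, the assembly of mm10), which matched 30271 identifiers, and promoter windows from RefSeq (GRCm38.p6), which matched 30 of the 39 members by symbol. Alternatives used DESeq2 1.42.0 (size factors, or its own test), limma-voom (limma 3.58.1), other filters, only the groups compared, a replicate block, thinning to the smallest total, Gm42418 and mitochondrial genes left out, and each library left out.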

Additional observations from a re-analysis of the deposited data

Results flagged for a closer look

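Hsf1 in Het_PBS 4, at 9.5 CPM, stood apart from the other Het_PBS libraries. The nearest of them had 6.47 CPM and the lowest 5.38 CPM, so the gap was 0.735 of the range of the group, above Dixon's critical value of 0.71 for 5 libraries. It is 23 reads against 9 to 15 in the others. Of 33 groups examined, 1 was far from the rest in this way, where chance gives about 1 in 20.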

How the results depend on the processing

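Hsp90aa1, Hsp90b1 and Canx in Het_B12 over Het_PBS, and Hsp90aa1, Canx, Pdia3 and Cryab in Het_B12 over WT_PBS, kept their direction and passed under every alternative run. Over WT_PBS some passed narrowly. The highest edgeR adjusted p there was 0.04954 for Hsp90aa1 (without WT_PBS 1) and 0.0405 for Canx (without Het_B12 1). For Cryab and Pdia3 it was 0.0377 and 0.0277, both without Het_B12 2. Against Het_PBS, 5 members were called when only those groups were fitted, the same as without WT_PBS 3, and leaving out each library in turn gave 3 to 5. The test over the 3 groups called 3 to 5 in this way, and with WT_PBS 3 and Het_PBS 5 both out, chosen after seeing the data, it called 6, with Pdia4 added. Over all genes, leaving out each library gave 549 to 1050 calls for Het_B12 over Het_PBS, 449 to 1268 for Het_B12 over WT_PBS, 0 to 14 for Het_PBS over WT_PBS and 556 to 1283 among the 3 groups. The highest count came without WT_PBS 3, except for Het_PBS over WT_PBS, where it came without WT_PBS 2. With WT_PBS 3 and Het_PBS 5 both out, Het_B12 over WT_PBS gave 1390 calls and Het_PBS over WT_PBS 1. Het_PBS over WT_PBS gave 40 with no filter on low counts and 1 after thinning, with 0 members in each.

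Changes of sign were among values that did not pass. Leaving out each library, log2 fold changes ran from -0.067 to 0.27 for Hspa1a and -0.011 to 0.10 for Hspa8 in Het_B12 over Het_PBS, and from -0.055 to 0.30 for Hsf1 in Het_B12 over WT_PBS. In Het_PBS over WT_PBS they ran from -0.083 to 0.31 for Hspa1a, -0.033 to 0.058 for Hspa8, -0.00088 to 0.076 for Canx and -0.19 to 0.058 for Ddit3. With WT_PBS 3 and Het_PBS 5 both out, Hspa8 in Het_B12 over Het_PBS was -0.0019, and in Het_PBS over WT_PBS Hsp90aa1 was -0.0201 and Hspa1a -0.15. The cause of these changes was not tested.

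The replicate numbers did not pair the libraries: deviations from the group means correlated at -0.0933 to 0.106 between libraries of the same number. With the replicate block, 830, 800, 0 and 875 genes were called in Het_B12 over Het_PBS, Het_B12 over WT_PBS, Het_PBS over WT_PBS and among the 3 groups, and 3, 4, 0 and 5 members. At 1683258 counts in the shallowest library, members under about 10 CPM, such as Hspa1a, Sdf2l1 and Eif2ak3, had intervals too wide to show changes of the size seen for Hsp90aa1.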
